A study of Ginkgo biloba with 9 samples.

Results

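A transient dip at the turning stage was found for 23 of the 43834 gene models (predicted genes) counted in autumn leaves of Ginkgo biloba. In each of these models every green and every yellow library lay at least 1.5 times above every turning library. Counts were divided by the DESeq2 median-of-ratios size factor of each library, and this normalized count is the level used below. The lowest of the 6 green and yellow values had to be at least 27 normalized counts, and the 100 most abundant models of green leaves and the 100 of yellow leaves were left out. All 23 members passed the expression filter of the tests, which kept 23042 models.

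Messenger RNA was sequenced from leaves of 3 adult trees grown outdoors, sampled in a single autumn. The sampling dates were September 12 for the green stage, October 26 for the turning stage and November 8 for the yellow stage, so that 44 days separated the first pair of dates and 13 days the second. Each stage had 3 libraries, numbered 1 to 3, with totals between 23766331 and 32319325 counts. Which tree a library came from is not labelled, so p-values cover the spread between these libraries, which may be technical in part. Each stage was a single day, so stage and date cannot be told apart.

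Autumn senescence is an ordered programme in which a leaf dismantles its chloroplasts and exports nitrogen and other nutrients to the tree before it is shed. Breakdown of chlorophyll exposes the yellow carotenoids, which gives ginkgo leaves their autumn colour. Large parts of the leaf transcriptome move steadily in one direction during this programme, and a transcript that is low only at an intermediate stage follows another course.

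The count table does not pair identifiers with gene names, so nothing is said here of what the members encode, and leaf cell type markers were not checked. Of the 23 members, 22 carried a Gb_ identifier and 1 an identifier with another prefix, or 4.35% of members, against 6.83% of the tested models and 4.55% of all models. Members are called by their rank below, where rank 1 has the largest ratio of the lowest green or yellow value to the highest turning value. Only 4 identifiers are printed, chosen by a fixed rule. They are Gb_00525 and Gb_30600, called higher in yellow than in green leaves, Gb_32078, called lower, and Gb_09777, the member of rank 1. Normalized counts were not divided by transcript length, so levels are compared between libraries and not between members.

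The ratio that chose the members ran from 1.53 to 2.76 with a median of 1.73, and only 4 members reached 2. The values just inside the limit were 1.53, 1.53 and 1.56, and the values just outside it were 1.497, 1.488 and 1.488. A further 46 models met the ratio but not the floor. The nearest of them had a lowest value of 26.9 normalized counts, and the nearest member had 28.3. No model that met both limits was removed for being among the most abundant. Of the 15252 models with every green and yellow library at the floor or above, 348 had all 6 of these libraries above all 3 turning libraries by any margin. The mirror rule, which asks for a peak of the same margin at the turning stage, found 50 models. Its base differed, with 17230 models that had every turning library at the floor or above. Of these, 475 peaked without overlap by any margin. These are counts under rules, and no test was made of the difference between them.

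In turning leaves the members stood at 0.127 to 0.490 of the green mean, with a median of 0.297. Yellow leaves then held 2.18 to 7.65 times the turning mean, with a median of 3.48. Both differences exceeded 2-fold in all 23 members. The step down was the larger in 10 members and the step up in the other 13. These contrasts chose the members, so the values are a description and carry no test. In bulk leaf RNA, fewer cells of a type and less RNA per cell cannot be told apart.

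**Figure D1:**
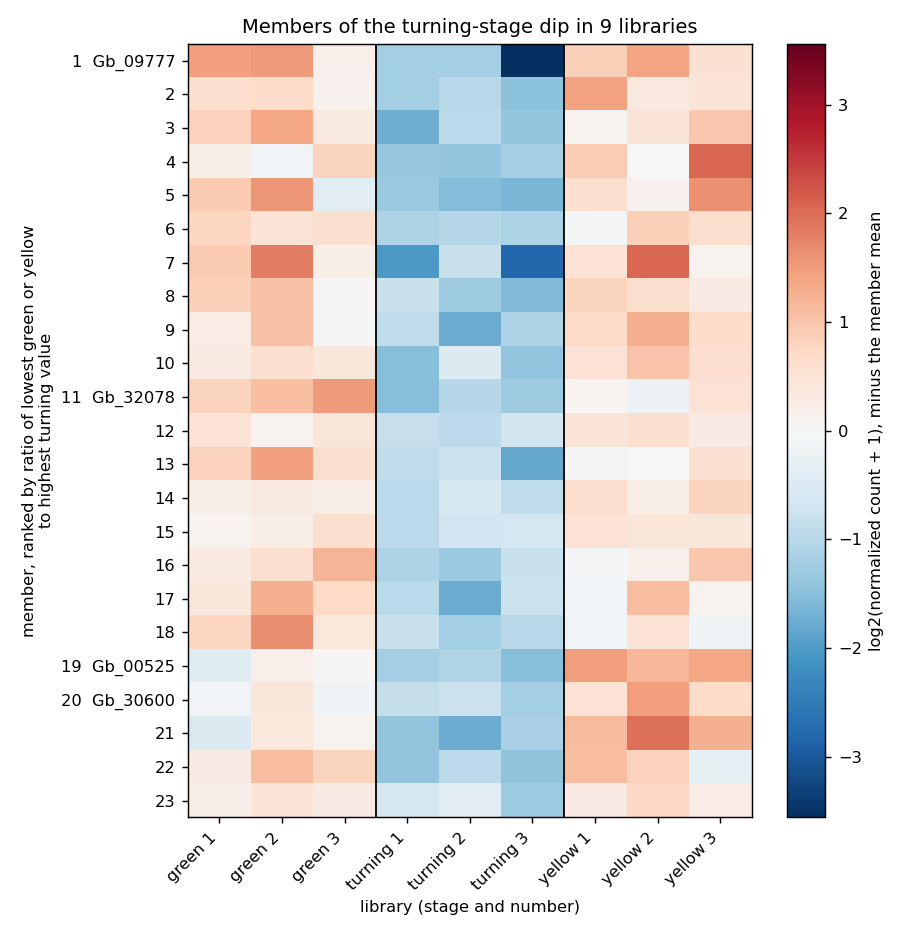
Level of the 23 members in the 9 libraries, as log2(normalized count + 1) minus the mean of each member. Rows run by rank of the ratio that chose them and columns by stage and library number. The 3 turning columns are the lowest of each row by construction, while the order of green and yellow columns differs between rows.

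Gb_09777 had the widest gap of the 23. Its normalized counts were 82.1, 85.5 and 33.1 in green libraries 1 to 3, 12.0, 11.9 and 1.54 in turning libraries, and 52.5, 78.0 and 43.0 in yellow libraries. Turning library 3 lay far below the other two turning libraries, and it rested on 2 reads, against 12 and 14 reads in the others. Its level averaged 66.9 ± 29.3 in the green, 8.49 ± 6.02 in the turning and 57.8 ± 18.1 in the yellow stage (SD, n = 3 each). Green and yellow libraries overlapped fully in range, with green library 3 the lowest of the 6.

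Gb_32078 held the most reads of the members and made up 39.6% of their summed normalized counts. It had 5542, 6700 and 9179 normalized counts in green, 1121, 1588 and 1331 in turning, and 3359, 2770 and 4554 in yellow libraries. The stages did not overlap, and yellow leaves stood between turning and green leaves. Turning leaves held 0.189 of the green mean, and yellow leaves 2.64 times the turning mean. Yellow leaves stood below the green level in all 3 same-numbered pairs, at 0.606, 0.413 and 0.496 of green.

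Gb_00525 showed the opposite balance. It had 69.98, 107 and 96.4 normalized counts in green, 40.0, 44.2 and 32.3 in turning, and 265, 216 and 246 in yellow libraries. The stages again did not overlap, and every yellow library was above every green library. Turning leaves held 0.426 of its green mean, and yellow leaves held 6.24 times the turning mean.

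Gb_30600 stood closest to green leaves at the turning stage, at 0.490 of the green mean. Its normalized counts were 49.1, 70.03 and 48.2 in green, 29.03, 30.6 and 22.3 in turning, and 76.8, 152 and 84.5 in yellow libraries. The lowest yellow library exceeded the highest green library by a small margin, and yellow library 2 stood well above the other two.

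**Figure D2:**
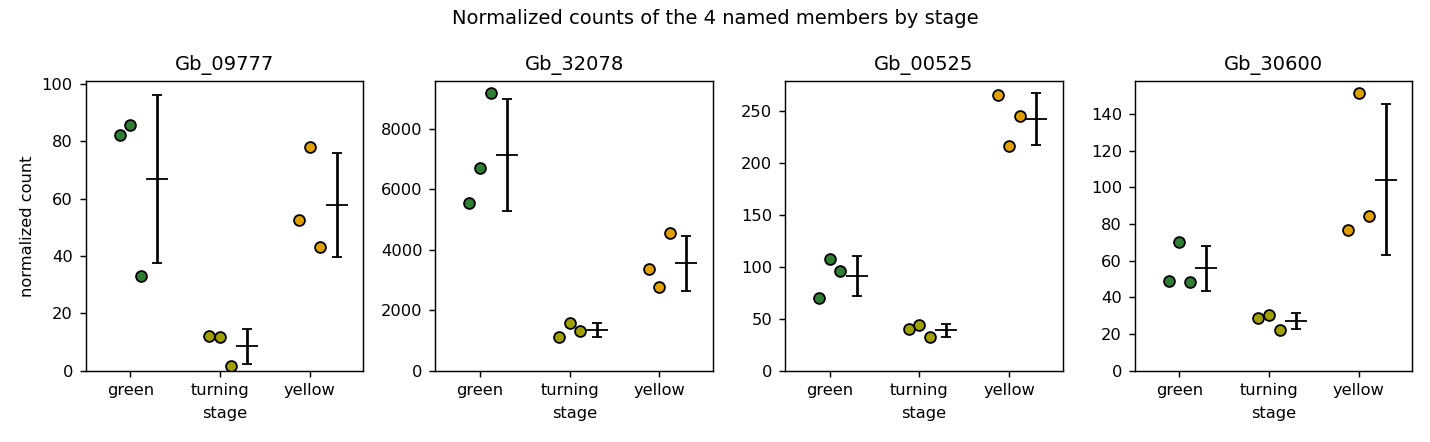
Normalized counts of Gb_09777, Gb_32078, Gb_00525 and Gb_30600 in green, turning and yellow leaves. Points are libraries 1 to 3 from left to right, and the bar beside them is the mean ± SD of 3 libraries. Yellow leaves lay below green leaves for Gb_32078, above them for Gb_00525 and Gb_30600, and overlapped with them for Gb_09777.

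The other members differed in how deep and how even the dip was. The member of rank 7 combined a deep dip with a wide spread in every stage, at 2009, 3732 and 1218 normalized counts in green, 253, 606 and 153 in turning, and 1504, 4375 and 1139 in yellow libraries. Library 2 was the highest and library 3 the lowest in each of the 3 stages for that member. The member of rank 12 was close to even, with 1082 ± 141 normalized counts in the green, 484 ± 46.3 in the turning and 1156 ± 127 in the yellow stage (SD, n = 3 each). The member of rank 15 was similar, with 1152 ± 188 in the green, 549 ± 66.8 in the turning and 1268 ± 57.4 in the yellow stage (SD, n = 3 each). Turning leaves held 0.448 and 0.476 of green in these members of rank 12 and 15, and their yellow means were within 1.5-fold of green, as in 16 of the 23. In 5 members, including Gb_09777 and Gb_32078, turning leaves held less than 0.2 of green.

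**Figure D3:**
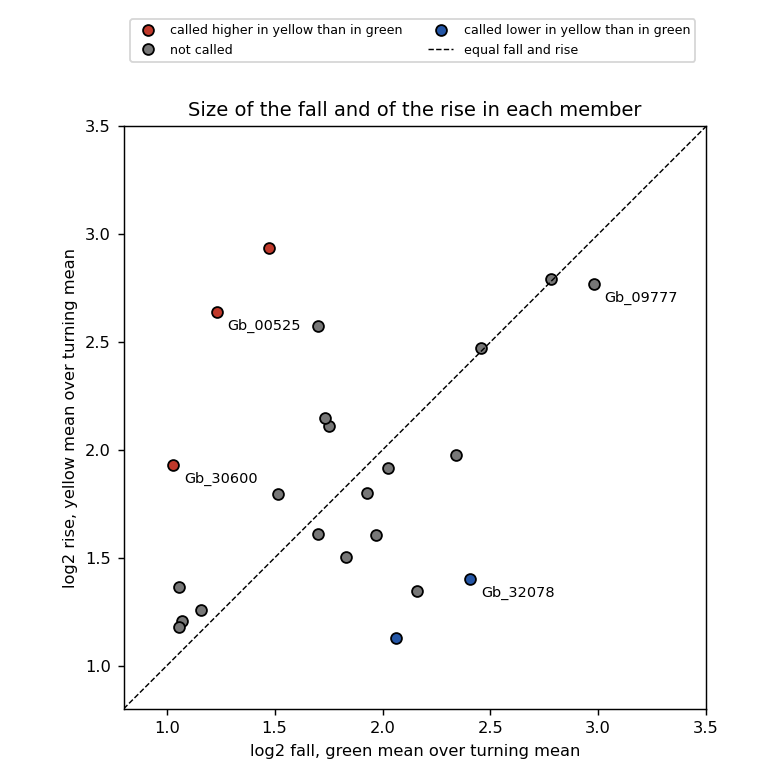
Log2 of green mean over turning mean (horizontal) against log2 of yellow mean over turning mean (vertical) for the 23 members, with the line of equal fall and rise. Colours give the call of yellow against green leaves. The 13 members above the line ended higher in yellow than in green leaves by their means, and the 10 below it ended lower.

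With all 9 libraries most members were called in the contrasts that the choice rests on, and nothing is read from these counts. In the edgeR quasi-likelihood fit over all 23042 models (Benjamini-Hochberg adjusted p below 0.05), 22 of 23 members were called lower in turning than in green leaves, against 12.3% of all models. All 23 were called higher in yellow than in turning leaves, against 20.5% of all models. The member that missed the first call was Gb_30600. Without green library 2, 13 members were called lower in turning than in green leaves. Both calls were made for 22 members, against 0.547% of all models. These 22 were 95.7% of the members and 17.5% of the 126 models with a called fall and a called rise, so most called dips lay outside the rule. Turning leaves were called below the midpoint of green and yellow leaves for 17 members, against 1.08% of all models. That count was 6, 5 and 11 without green library 1, 2 or 3, 0, 0 and 2 without turning library 1, 2 or 3, and 8 without yellow library 2. In each of these fits all 23 members had an unadjusted edgeR p under 0.05 for that contrast, and 23 were called with the DESeq2 Wald test on all 9 libraries. The rule chose the members on that contrast, so small p-values were close to fixed in advance and carry no support.

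Comparison of yellow with green leaves asks whether the members came back to their September level. The rule sets both stages against the turning stage and not against each other, so this contrast was tested. The floor and the gap still limit how low either stage can be in a member. Of 23 members, 3 were higher in yellow leaves, 2 were lower and 18 were not called (edgeR, adjusted p below 0.05). Among all tested models 30.2% were higher and 31.9% lower. With library totals as the scaling 1 member was higher and 10 were lower, against 16.5% and 49.9% of all tested models, whose median moved from -0.062 to -0.78 on the log2 scale. On the TMM scale calls covered 21.7% of the members, against 62.1% of all tested models and 62.5% of the 15252 models with green and yellow values at the floor. The share was 29.3% for the 348 models that dipped by any margin, and of the 50 peak models 9 were higher and 7 lower. Every yellow library lay above every green library in 3 members, against 33% of all tested models, and below every green library in 2, against 34.9%. The difference between these shares was not tested. For the 18 members without a call, a return to the green level is not shown.

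The size of the yellow-against-green change is set beside its error here. The median absolute log2 fold change of yellow over green was 0.34 over the members, against 1.11 over all tested models and 0.31 over the 348 dipping models. The median standard error was 0.34 for the members, against 0.30 for all tested models and 0.20 for the 348. The signed median was -0.0082 over the members, against -0.062 over all tested models. By their means 13 members were higher and 10 lower in yellow than in green leaves.

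Gb_00525 rose in yellow leaves, to 242 ± 24.7 normalized counts, against 91.2 ± 19.2 in green leaves (SD, n = 3 each). Its log2 fold change was 1.38 ± 0.23 (SE; edgeR adjusted p = 0.000865), with yellow above green in 3 of 3 same-numbered pairs. The call held in all 19 alternative fits, with log2 fold changes from 0.67 with library totals to 1.51 and adjusted p from 4.74e-08 to 0.0338. The member of rank 21 rose by a similar amount, to 814 ± 266 in yellow leaves, against 295 ± 87.9 in green leaves (SD, n = 3 each), a change of 1.44 ± 0.31 on the log2 scale (SE; edgeR adjusted p = 0.00357). Its lowest yellow library, at 631 normalized counts, was above its highest green library, at 372. The call of rank 21 held in 18 of 19 alternative fits and was lost with library totals, at 0.72 on the log2 scale (edgeR adjusted p = 0.0601; 3.40e-05 to 0.0601 over all alternatives).

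Gb_30600 was the third member that rose, to 104 ± 41.1 in yellow leaves, against 55.8 ± 12.4 in green leaves (SD, n = 3 each). The change of 0.88 ± 0.32 on the log2 scale lay close to the threshold (SE; edgeR adjusted p = 0.0415). The call was lost in 9 of 19 alternative fits, whose adjusted p ran from 0.0119 to 0.682 in all. Without yellow library 2 the change was 0.51 ± 0.29 (SE; edgeR adjusted p = 0.168). With library totals it was 0.16 ± 0.32 (SE; edgeR adjusted p = 0.682). The call was also lost without green library 1 or 3 and without turning library 1 or 2, where the change stayed at 0.78, 0.78, 0.85 and 0.88. With no library of the compared stages left out, it was lost with upper-quartile factors at 0.55 (edgeR adjusted p = 0.178). It was lost too with no filter, at 0.81, and with only the compared stages fitted, at 0.83 (edgeR adjusted p = 0.0718 and 0.0773).

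Gb_32078 fell in yellow leaves, to 3561 ± 909 normalized counts, against 7140 ± 1858 in green leaves (SD, n = 3 each). Its log2 fold change was -1.03 ± 0.25 (SE; edgeR adjusted p = 0.00634), and it stayed past the threshold in all 19 alternative fits, from -1.76 with library totals to -0.81 (adjusted p from 0.000413 to 0.0251). The other member called lower, of rank 18, had 58.9 ± 15.2 in yellow leaves, against 112.8 ± 54.7 in green leaves (SD, n = 3 each). Its libraries overlapped, with yellow library 2 at 76.5 above green library 3 at 70.8, and its adjusted p was 0.0487 (edgeR; log2 fold change -0.96 ± 0.37, SE). The count of members called lower was 1 in place of 2 without green library 1 or 2, turning library 1 or 2, or yellow library 1 or 3. The member of rank 13 had every yellow library below every green library but was not called (log2 fold change -0.84 ± 0.36, SE; edgeR adjusted p = 0.0672). Its values were 56.6, 54.4 and 79.8 in yellow libraries, against 98.2, 152 and 85.1 in green libraries.

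Gb_09777 changed by -0.23 ± 0.60 on the log2 scale in yellow over green leaves (SE; edgeR adjusted p = 0.752), which did not pass the test in any of the 19 alternative fits. The members of rank 5 and rank 7 had log2 fold changes of -0.0082 ± 0.52 and -0.010 ± 0.67 (SE), both near 0 with a wide error between libraries. With the library number as a replicate block the member of rank 7 had -0.12 ± 0.14 and the member of rank 5 had 0.03 ± 0.59 (SE). The error thus narrowed in rank 7 and not in rank 5. It also narrowed in Gb_09777, which had -0.16 ± 0.35 with the block (SE). The members of rank 12 and rank 15 had 0.07 ± 0.15 and 0.11 ± 0.16 without the block, and 0.08 ± 0.15 and 0.13 ± 0.14 with it (SE). The member of rank 4 had 119, 63.3 and 264 in yellow libraries, against 73.3, 59.1 and 111 in green libraries. The difference of 0.84 ± 0.47 on the log2 scale (SE) was not called (edgeR adjusted p = 0.151). With the block it was 0.72 ± 0.32 (SE), also not called (edgeR adjusted p = 0.0751). For that member yellow exceeded green in each same-numbered pair, while the ranges overlapped. Over all members, yellow was higher in all 3 same-numbered pairs for 6, lower in all 3 for 5 and mixed for 12.

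**Figure D4:**
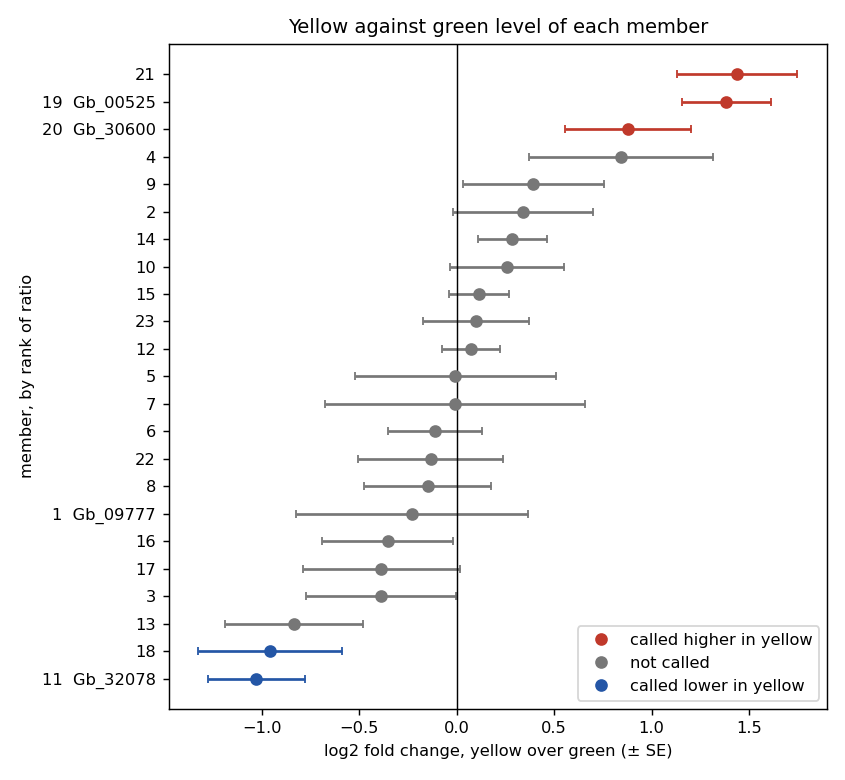
Log2 fold change of yellow over green leaves (edgeR, ± SE) for the 23 members, ordered by size and labelled by rank. Red points are called higher, blue points lower and grey points are not called at an adjusted p below 0.05. The 3 red members are of rank 19, 20 and 21 and the 2 blue members of rank 11 and 18.

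Libraries of the same stage differed more for the members than for models in general in green and yellow leaves. The median coefficient of variation over 3 libraries was 29.8% in green leaves for the members, against 16.2% for tested models with a mean of at least 27 normalized counts in that stage. In turning leaves it was 18.6%, against 17.9%, and in yellow leaves 30.05%, against 21.7%. The turning stage had the lowest coefficient of variation of the 3 stages in 12 members and the highest in 4. The rule used these same values, and the tested models were not matched to the members by level, so the comparison is a description. Green library 2 was the highest green library for 17 of 23 members, against 30.9% of models, and its median level was 1.26 times the stage mean of the member. The highest library was number 2 for 12 members in turning leaves, against 30.5% of models, and for 11 members in yellow leaves, against 31.03%. The highest library had the same number in green and yellow leaves for 12 members, where 48.5% of the models at the floor did so. It had the same number in all 3 stages for 6 members, against 28.04% of those models.

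The rule fixes a dip within every library number, so only its size is described here. Turning leaves held a median of 0.327, 0.242 and 0.316 of the green level in library numbers 1, 2 and 3. Yellow leaves held a median of 3.05, 3.33 and 3.78 times the turning level. The same medians for yellow over green were 0.967, 0.938 and 1.15, on either side of 1. The steepest single rise, 27.9-fold, was that of Gb_09777 in library number 3, which rests on 2 reads in the turning library.

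Together the members held little of the leaf messenger RNA. They took 0.0687% ± 0.0101 of all counts in the green, 0.0151% ± 0.00243 in the turning and 0.0337% ± 0.00377 in the yellow stage (SD, n = 3 each). As normalized counts their sums were 14660 ± 1985, 3714 ± 506 and 12074 ± 1533 in the same order of stages (SD, n = 3 each). Without Gb_32078 the sums of normalized counts were 7380, 10979 and 7181 in yellow libraries, against 6830, 9228 and 6499 in green libraries. On this scale yellow was then the higher stage in each same-numbered pair, in place of the lower. Yellow and green libraries overlapped in both sums of normalized counts. The share of all counts held by the 23 together was lower in every yellow than in every green library. That share stayed lower in every yellow library without Gb_32078, so the reversal was seen on the normalized scale only. Size factors averaged 1.30, 1.16 and 0.691 in the same order, which raises yellow libraries relative to their totals. The 5 members with the most counts made up 79.9% of the sum. Raw counts of the members ran from 2 to 1867 in turning libraries and from 21 to 12191 in green and yellow libraries.

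Which models counted as members depended on the scaling and on single libraries. With TMM-scaled library sizes the rule found 20 models, 19 of them among the 23, and with upper-quartile factors 25, of which 20 were. With library totals alone it found 22 models and only 8 of the 23 members. Leaving out a library asks for fewer values to clear the gap, and it gave 60 models without green library 3, 47, 61 and 46 without turning library 1, 2 or 3, and 42 and 45 without yellow library 1 or 3. Members stay in such lists nearly by construction, so their staying is no sign of stability. All 23 were in each of these lists, and 22 were among the 30 found without green library 1. The highest turning value came from library 2 in 12 members, and the lowest of the 6 other values lay in green leaves for 14 and in yellow leaves for 9.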

How the data were processed

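The authors deposited raw counts of reads for each gene model in 9 libraries. Per the submitters' processing notes the tools included HTSeq 0.6.1, HISAT2 2.0.4 and CASAVA 1.8, whose roles are not given. The sources used here name no genome build, annotation, strand setting or read filter, so models that overlap or share reads with near-identical copies could not be recognised. Every deposited value column was matched to a library by its title.

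Members were found on counts divided by DESeq2 1.42.0 size factors. Tests used edgeR 4.0.16 in R 4.3.3: filterByExpr (minimum count 10, minimum total 15), TMM, and glmQLFit with robust = TRUE on all 9 libraries with stage as the only term, then glmQLFTest with Benjamini-Hochberg adjustment over all 23042 models at 0.05. Standard errors were derived from F statistics. Alternatives were DESeq2 size factors, upper-quartile factors, library totals, the DESeq2 Wald test, limma-voom (limma 3.58.1), other filters, robust = FALSE, a replicate block, fits of only the stages compared, and leaving out each library.

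The pairing of libraries by number was checked on deviations from the stage means over all tested models. Same-numbered libraries correlated with r from 0.25 to 0.66 (9 pairs) and others from -0.52 to 0.017. Deviations of the 3 libraries of a stage cancel out, so the second range is tied to the first and is no separate evidence. Because same-numbered libraries correlated positively, the numbers were used for the same-numbered ratios and for the replicate block, which is an alternative fit. The main tests did not use this pairing, so their errors and p-values are unpaired. The pairing comes from the data, since no label states it. Libraries of a stage differed by a chi-square per degree of freedom of 43.9 to 138, more than sampling noise, so none was counted as the same library deposited again. Raw counts bear on counting error alone, which is only a part of the spread between libraries. The sources used here name no molecular identifiers, so PCR copies of a read could not be recognised.

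The members, and the rules above, were chosen with earlier results of these data known. The printed identifiers are the 2 members with the largest ratio among those called higher and among those called lower in yellow leaves without overlap, and, as only 1 was lower, the largest ratio of the rest. Lists by gene name were not tested, since no names were used here.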

Additional observations from a re-analysis of the deposited data

How the results depend on the processing

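The counts of members higher in yellow than in green (3) and than in turning leaves (23), stayed within 1.5 times of their value in all alternatives but library totals, where 1 member was higher in yellow than in green. The count lower in yellow than in green leaves (2) became 1 with DESeq2 size factors in edgeR, 1 with limma-voom and 10 with library totals. The median log2 fold change of members, yellow over green, moved to -0.34 with upper-quartile factors and to -0.72 with library totals, where the median of all tested models moved to -0.39 and -0.78. Relative to all tested models it was 0.054 under TMM, 0.058 under upper-quartile scaling and 0.056 under library totals. It moved more in other fits, to 0.15 with limma-voom, 0.10 with the replicate block and 0.0014 with no filter. Across all fits it ran from -0.0070 without green library 3 to 0.25 without yellow library 3. Leaving out 1 library gave medians from -0.076 to 0.15, with 2 to 3 members higher and 1 to 2 lower in yellow than in green. It gave 13 to 23 lower in turning than in green, 21 to 23 higher in yellow than in turning, and 0 to 15 below the midpoint (edgeR). For the midpoint 23 of 23 had an unadjusted edgeR p under 0.05 in each such fit. With all 9 libraries 23 were called below it by the DESeq2 Wald test. The rule chose the members on the contrasts with turning leaves, so the counts and p-values of those contrasts are a description. With the replicate block the counts were 3 higher and 2 lower in yellow than in green, 23 lower in turning than in green and 23 below the midpoint, and no yellow-against-green call of a member changed. The rule found 91 models with a smaller gap, 4 with a 2-fold gap, 43 with a floor of 10 and 11 with a floor of 100, and 30 to 61 with 1 library left out. Members at low counts, such as Gb_09777 with 2 reads in turning library 3, are limited by depth.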
